A study of Mus musculus with 96 samples.

Results

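Of the 96 libraries of the series, 15 are liver, and 10 of these were compared: the 5 with the highest and the 5 with the lowest level of Scd1, the stearoyl-CoA desaturase gene. The members were selected on that measured value, so Scd1 itself is a description and not a result. The series profiled RNA of 2 month-old mice of 5 genotypes, the WT control and the reprogrammable strains 4Fj, 4FsB, 4Fk and 4FsA, which carry inducible reprogramming factors. By the sample labels, liver has 3 samples of each genotype, but the columns of the count table carry only the tissue and a running number. Libraries are therefore named by that number ("liver library 7"), which gives no genotype, and each side may mix genotypes in any way. Feeding state, time of day, sex, whether the factors were induced, and the promoter that drives them are not in the labels used here. All groups share the tissue, the age and the service provider that made the libraries.

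De novo lipogenesis turns surplus carbohydrate into fat in the hepatocyte. ATP citrate lyase (Acly) and acetyl-CoA carboxylase (Acaca, Acacb) supply the building blocks, fatty acid synthase (Fasn) makes palmitate, Elovl6 lengthens it, and SCD1 places the double bond that makes oleate. In a fed liver insulin, acting through SREBP-1c (Srebf1), and glucose, acting through ChREBP (Mlxipl), raise these genes, while a fasted liver turns to glucose output, fatty acid oxidation and ketone bodies under glucagon and PPAR alpha (Ppara).

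Promoters of lipogenic genes were read because those genes were higher together in the comparison, and because the factors that control them bind there. The sequences are RefSeq's, of build GRCm38.p6, 250 bases before to 50 bases after the annotated start, and their coordinates are of that build and not of the one the counts were made on. Of the 39 measured genes of the lipogenic lists, 30 matched the table, with 42 windows. Scd1 was not among them. The 3 windows shown are of Fasn, Acss2 and Acacb. Fasn marks the state together with Scd1 but was not counted as higher. Acss2 and Acacb had the largest differences, besides Scd1, among the lipogenic genes counted as higher. Capitals mark CCAAT, the core of the element bound by NF-Y, on either strand.
Fasn, chr11:120824498-120824797, minus strand: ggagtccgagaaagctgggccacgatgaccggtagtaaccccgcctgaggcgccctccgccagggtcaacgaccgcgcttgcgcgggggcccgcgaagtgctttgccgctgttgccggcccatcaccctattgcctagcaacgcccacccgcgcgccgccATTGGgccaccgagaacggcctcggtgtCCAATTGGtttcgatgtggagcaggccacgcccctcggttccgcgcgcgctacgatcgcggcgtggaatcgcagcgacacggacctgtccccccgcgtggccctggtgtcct
Acss2, chr2:155517793-155518092, plus strand: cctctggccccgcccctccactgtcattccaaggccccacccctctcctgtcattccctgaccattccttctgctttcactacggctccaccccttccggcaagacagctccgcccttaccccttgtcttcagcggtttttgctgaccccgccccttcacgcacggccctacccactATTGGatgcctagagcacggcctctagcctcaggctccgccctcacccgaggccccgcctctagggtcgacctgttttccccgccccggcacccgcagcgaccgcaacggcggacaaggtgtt
Acacb, chr5:114165268-114165567, plus strand: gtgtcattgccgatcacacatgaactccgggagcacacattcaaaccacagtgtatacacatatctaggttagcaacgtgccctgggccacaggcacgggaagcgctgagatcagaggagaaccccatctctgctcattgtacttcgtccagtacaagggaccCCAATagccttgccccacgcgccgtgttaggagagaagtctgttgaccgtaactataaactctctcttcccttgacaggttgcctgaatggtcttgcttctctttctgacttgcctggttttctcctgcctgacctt
The Fasn window holds 3 matches and those of Acss2 and Acacb 1 each. CCAAT was in 18 of the 42 lipogenic windows (42.9%) and in 37.4% of all 32851 windows of the table. Among the 9 windows of lipogenic genes counted as higher it was in 5 (55.6%). CACGTG, the E-box core that USF and ChREBP bind, was in 8 of the 42 windows (19.0%) against 7.15% of all windows, and in 0 of the 9. The 8 windows belong to 7 genes, since 2 overlapping windows of Scap hold the same match. TCACNCCAC, a sterol element, was in 1 of the 42 windows (2.38%) against 1.24%. The consensus of the PPAR direct repeat, searched as its 2 half-sites with 1 free base between them, was in 0 of the 42 against 0.0396%. All 4 were searched on both strands. In the Fasn window a pair of CCAAT matches, 1 on each strand, overlap, and no other motif matched in the windows shown. A match is a description of the letters in the window.

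Values are CPM, the estimated count of a gene per 1000000 counts of its library. Where 5 values are listed for a side, they stand in the order of libraries 3, 2, 1, 15 and 6 for the high-Scd1 side and 7, 12, 11, 10 and 8 for the low-Scd1 side. Scd1 was at 44471, 15414, 14437, 9666 and 4409 CPM in the high-Scd1 side and at 761, 121, 55.9, 55.5 and 51.6 CPM in the low-Scd1 side. The libraries in between, 4, 14, 13, 5 and 9, had 3037, 2817, 2721, 1915 and 1799.6 CPM. The last library inside the high-Scd1 side had 4409 CPM and the next outside it 3037 CPM, and the first inside the low-Scd1 side had 761 CPM against 1799.6 CPM just outside. Library 7 thus lay well above the other 4 of its side.

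The label of the comparison, a lipogenic state marked by Scd1 and Fasn, held in all 10 libraries but library 6. Fasn was at 4849, 1768, 1428, 1291 and 129 CPM in the high-Scd1 side and at 156, 145, 82.7, 91.6 and 53.1 CPM in the low-Scd1 side. Library 6 had high Scd1 but Fasn within the range of the low-Scd1 side, and by Fasn it ranked 12 of 15. Ordering the libraries by Fasn put library 14 in its place and library 6 into the lowest 5. Counts without library 6 are therefore given for the lists it moves most, a choice made after seeing the data. Leaving out a library picked for its low Fasn favours calls of Fasn and of genes low with it.

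The libraries held 8211684 to 14176807 estimated counts, so a count of 0 allowed up to 0.212 to 0.365 CPM by counting error alone (3 counts). Genes detected were 16932 to 19364 in 13 libraries, and fewer in libraries 7 (15786) and 8 (16289), both of the low-Scd1 side. These 2 also had the lowest TMM scaling factors, 0.636 and 0.708. Counts of Pou5f1, the Oct4 gene, reached 1 CPM in 1 high-side library (library 6, 18.7 CPM) and in 3 low-side libraries (12, 11 and 10, at 43.6, 83.4 and 63.4 CPM). The share of mitochondrially encoded counts was 4.85% to 19.0% in the high-Scd1 side and 3.75% to 9.36% in the low-Scd1 side. Library 1 was the only liver library with no Y-linked counts, at 408 CPM of Xist. Hepatocyte genes were present in every library: their list level, the mean log2(CPM + 1) over 19 measured genes, was 8.14 to 9.12 in the high-Scd1 side and 7.42 to 8.46 in the low-Scd1 side.

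A gene was called higher or lower in the high-Scd1 side when the medians of log2(CPM + 1) differed by at least 1 and the 5 values of each side did not overlap. That difference of medians, high minus low, is called the log2 difference, and the added 1 CPM makes it smaller than the true change for low genes. Of 13466 genes with a mean of 1 CPM or more over the 15 liver libraries, 480 were called higher (3.56%) and 74 lower (0.55%). No p-value is given, because the sides were chosen by a measured value and not by a label. The balance depends on scaling: 86.6% of the called genes were higher with CPM, 58.9% with TMM (277 higher, 2.06%, and 193 lower, 1.43%) and 54.7% with DESeq2 size factors (256 and 212). TMM moved the median of all genes from 0.12 to -0.02, and all 480 and all 74 genes kept their sign, with 252 and 69 of them called again. Without library 6 the counts were 1288 higher (9.56%) and 197 lower (1.46%), and the lower count was 169 without library 7, 127 without library 12 and 124 without library 15. Leaving out the 4 libraries with Pou5f1 leaves 4 libraries (3, 2, 1 and 15) against 2 (7 and 8), where 4588 genes were higher (34.1%) and 434 lower (3.22%), with a median over all genes of 0.74. With TMM as well, 1948 were higher (14.5%) and 1428 lower (10.6%), with a median of 0.14. Without libraries 7 and 8, 1109 were higher (8.24%) and 1341 lower (9.96%). Counts of a list's genes in these settings are to be read against these shares. Those with 5 libraries a side and CPM are to be read against 3.56% higher and 0.55% lower. Without the libraries with Pou5f1 and with CPM, 437 of the 480 and 63 of the 74 genes were called again, at a much higher background. With TMM as well it was 261 and 74, and without libraries 7 and 8 it was 432 and 69. With the libraries ordered by Fasn, 959 genes were called higher (7.12%) and 321 lower (2.38%), and 178 of the higher ones were called in both orders, 37.1% of the set by Scd1 and 18.6% of the set by Fasn. In 375 of the 480 and 63 of the 74 genes the median of the 5 libraries in between lay between the medians of the sides.

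Fatty acid synthesis genes stood higher in the high-Scd1 side as a group. Of the 13 measured genes of the list besides Scd1, 13 had a positive log2 difference, with a median of 2.73 against 0.12 for all genes. Of these 13, 5 were called higher and 0 lower (3.56% and 0.55% of all genes). The called genes were Acacb, Acss2, Scd2, Acaca and Me1, and the same number passed with TMM. Without library 6, 12 of the 13 were called higher (9.56% of all genes), and without libraries 7 and 8 it was 6 (8.24%). With 7 against 7 libraries 0 of the 13 were called (median 1.91), where 22 of all genes were called higher. The level of the list was 5.95 to 9.37 in the high-Scd1 side, 5.93 to 7.08 in the libraries in between and 4.98 to 5.56 in the low-Scd1 side. Library 6 gave the lowest level of the high side.

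Acss2, which makes acetyl-CoA from acetate in the cytosol, was at 1157, 305, 383, 464 and 57.8 CPM in the high-Scd1 side and at 32.6, 21.6, 20.7, 22.6 and 30.3 CPM in the low-Scd1 side, a log2 difference of 4.02. The medians differed 16.9-fold, and the lowest high-side value, in library 6, was still above every low-side value. Acacb, the carboxylase at the mitochondrial surface whose malonyl-CoA restrains fatty acid import, was at 616, 148, 188, 133 and 39.5 CPM against 10.4, 10.1, 8.8, 7.12 and 9.84 CPM. Its medians differed 15-fold (log2 difference 3.78), and the low-side libraries lay close together. Acaca, the cytosolic carboxylase that feeds chain synthesis, was at 502, 194, 160.2, 228 and 56.4 CPM against 19.7, 48.4, 47.4, 42.9 and 17.5 CPM (log2 difference 2.15). Here library 6 exceeded the highest low-side value only narrowly. Me1, malic enzyme, which makes NADPH for the synthase, was at 996, 207, 206, 447 and 235 CPM against 32.1, 99.3, 127, 146 and 45.4 CPM (log2 difference 1.23), and unlike most of the list it was not lowest in library 6. Scd2, the isoform of other tissues, was at 19.8, 26.9, 124, 9.98 and 10.4 CPM against 1.11, 2.65, 1.98, 5.71 and 0.965 CPM (log2 difference 2.81). Scd1 and Scd2 are close copies, so reads may have been split between them in counting, and the Scd2 value is uncertain.

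Fasn had a log2 difference of 3.95 but overlapping sides, through library 6 alone, which at 129 CPM lay under library 7 (156 CPM) and library 12 (145 CPM). Acly, the citrate lyase, showed the same arrangement, at 2119, 584, 648, 331 and 78.1 CPM against 37.1, 92.1, 87.3, 108 and 55.6 CPM (log2 difference 2.73). Elovl6, which lengthens palmitate, was at 749, 137, 144, 231 and 34 CPM against 99.9, 21.5, 22.4, 26.9 and 28.8 CPM (log2 difference 2.37), and library 7 stood apart from the other low-side libraries. Of the desaturases and elongase of polyunsaturated fatty acids, Fads1 had a log2 difference of 2.52, Fads2 of 3.32 and Elovl5 of 2.99, each with library 6 within or under the low-side range. Slc25a1, the mitochondrial citrate carrier, differed least of the list, at 286, 228, 229.7, 229 and 128 CPM against 125, 165, 179.9, 168 and 90.1 CPM (log2 difference 0.47). Aacs, which activates acetoacetate for lipid synthesis, had a log2 difference of 1.73 with overlap.

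**Figure D1:**
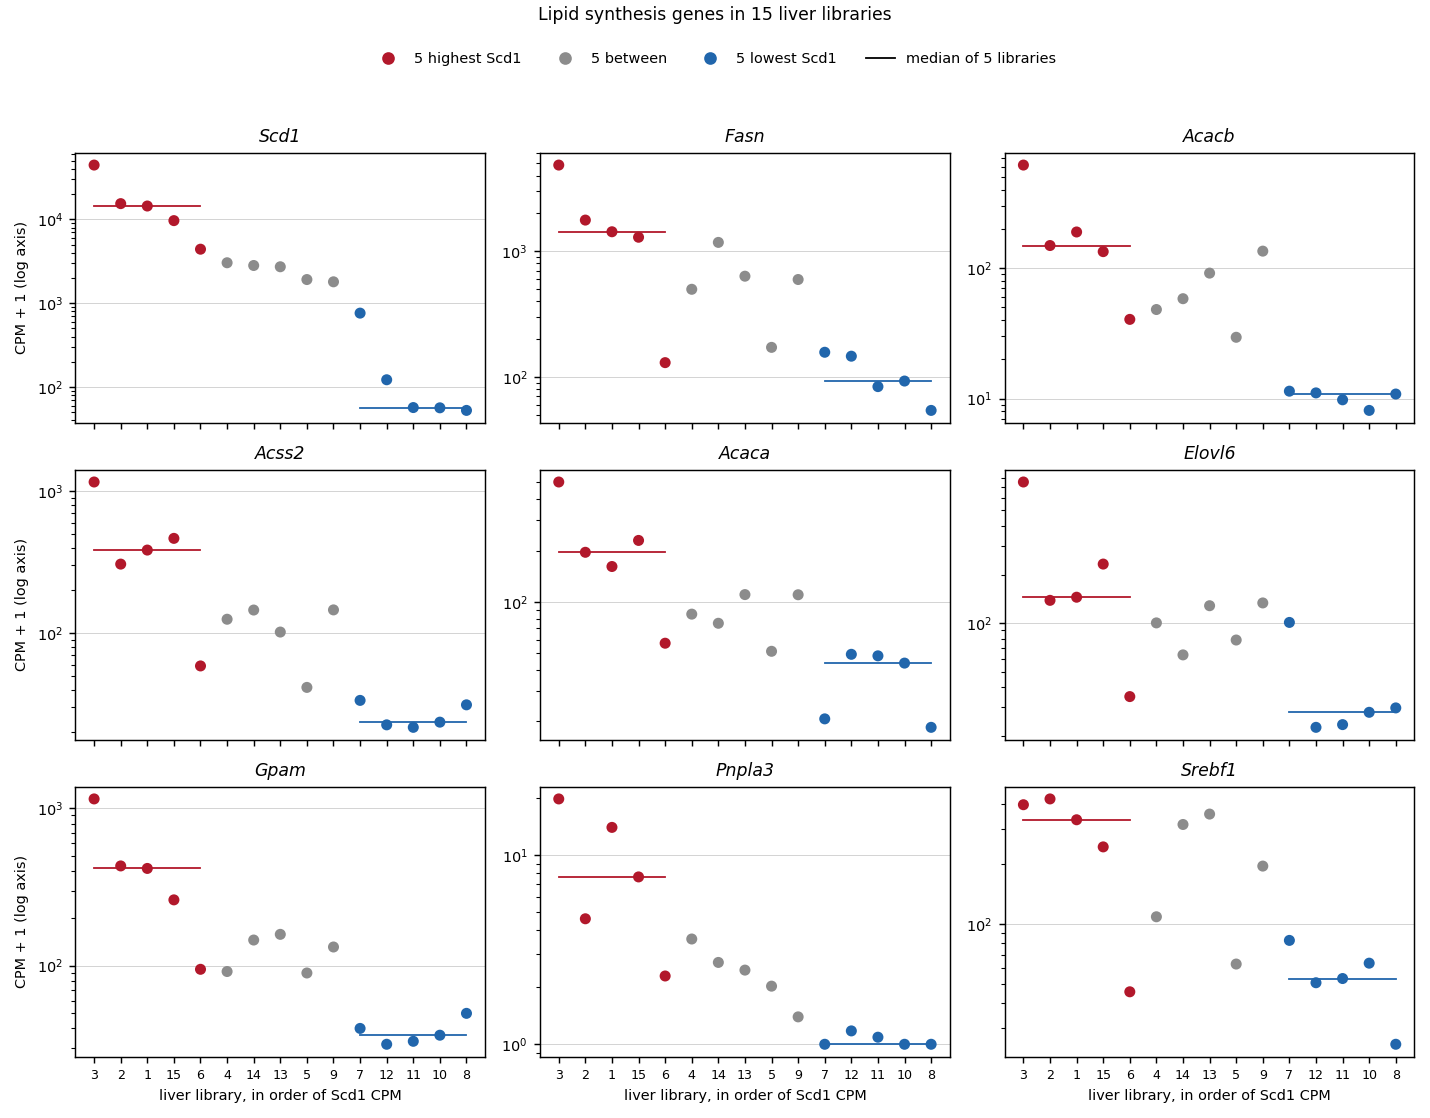
Scd1 and 8 other lipid synthesis genes in the 15 liver libraries, as CPM + 1 on a log axis, with libraries in the order of their Scd1 CPM. Points are single libraries, red for the 5 with the highest Scd1, grey for the 5 in between and blue for the 5 with the lowest, and lines mark the median of a side. Library 6 is the lowest red point in all 9 panels, and for Fasn, Elovl6 and Srebf1 it lies within the range of the blue ones.

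Genes of glyceride synthesis, which joins fatty acids to glycerol, were also higher in part. Of 11 measured, 4 were called higher and 0 lower (median log2 difference 1.47), and with TMM 2 were called. Gpam, the mitochondrial acyltransferase of the first step, was at 1145, 429, 414, 261 and 93.8 CPM in the high-Scd1 side against 38.9, 30.6, 32, 35.1 and 48.7 CPM, a 11.8-fold difference of the medians. Pnpla3, a lipid droplet protein controlled by SREBP-1c, was at 18.7, 3.6, 13, 6.65 and 1.29 CPM against 0, 0.177, 0.0898, 0 and 0 CPM, and the low-side values lie at or under what a count of 0 allows. Agpat2, the next acyltransferase of the pathway, was at 168, 143, 172, 165 and 387 CPM against 86.3, 60, 39.3, 47.4 and 73.7 CPM. It was highest in library 6, the opposite of Gpam. Gpd1, which makes glycerol 3-phosphate, was at 336, 304, 281, 216 and 239 CPM against 103, 127, 61, 58 and 98.4 CPM. Agpat2 and Gpd1 were no longer called with TMM, at log2 differences of 1.33 and 0.84. The 2 enzymes of the last step did not separate the sides: Dgat2 was at 523, 381, 456, 341 and 277 CPM against 355, 164, 119.7, 123 and 229 CPM and Dgat1 had a log2 difference of -0.23. Lpin1 and Lpin2, the phosphatidate phosphatases, had log2 differences of 2.61 and 2.81 with overlap.

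None of the 14 lipogenic regulators was called in either direction (median log2 difference 0.47). Srebf1 was at 396, 424, 333, 243 and 44.6 CPM in the high-Scd1 side and at 81.6, 49.6, 52.2, 62.5 and 23.8 CPM in the low-Scd1 side (log2 difference 2.65). In 4 of 5 high-side libraries it was above every low-side value, and library 6 was not. Mlxipl was at 277, 129, 129, 785 and 31.7 CPM against 44.9, 97.7, 69.1, 48.8 and 24.7 CPM (log2 difference 1.38), while 4 of the 5 libraries in between had 572 to 875 CPM. The highest Mlxipl values were in libraries 13 and 14 in between, at 875 and 826 CPM, with library 15 of the high-Scd1 side next. Libraries 3, 2 and 1, with the most Scd1, lay lower. Thrsp, a lipogenic cofactor, had a log2 difference of 2.20 and Insig1, which holds SREBP in the endoplasmic reticulum, of 1.86. Nr1h3, the gene of LXR alpha, was at 71.1, 80, 81.8, 83.8 and 279 CPM against 71.1, 65, 67.3, 67.6 and 101 CPM, with library 6 well above the rest of its side. Mlx, the partner of ChREBP, was the other way round at a log2 difference of -1.26, with values of 27.1, 26.2, 28.1, 29.3 and 91.5 CPM against 15.8, 74.8, 68.4, 73.8 and 38 CPM. High Mlx went with the libraries that had Pou5f1, on both sides. Leaving out the 4 libraries with Pou5f1, 8 of the 14 regulators were called higher, where 34.1% of all genes were. Without library 6, 3 were, where 9.56% of all genes were.

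Genes of glucose entry and glycolysis had positive log2 differences in 16 of 17, with a median of 1.04, and 0 were called. Without library 6, 7 were called higher (9.56% of all genes). In the order of Fasn, where library 6 is on the low side and library 7 on neither, 7 were too (7.12%). Pklr, liver pyruvate kinase, was at 762, 206, 244, 511 and 66.6 CPM against 83.6, 53.7, 9.52, 14 and 21.2 CPM (log2 difference 3.46). Library 7 of the low-Scd1 side lay above library 6 of the high-Scd1 side. The transporter gene Slc2a2 (log2 difference 3.60) and the glycogen-targeting subunit gene Ppp1r3b (3.67) overlapped through library 6 as well. In the pentose phosphate and NADPH list, Me1 was the only one of 9 genes called.

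No gene of gluconeogenesis or the fasting response was called lower in the high-Scd1 side. Of 18 measured, 16 had positive log2 differences (median 1.08), and 2, G6pc and Foxo3, were called higher. G6pc, glucose-6-phosphatase, the last enzyme of glucose output, was at 724, 531, 397, 116 and 118 CPM against 53.2, 31.8, 17.1, 9.66 and 86.2 CPM (log2 difference 3.60), and with TMM it was not called (3.30). Foxo3, a forkhead factor restrained by insulin, was at 89.8, 59.4, 73.3, 39.2 and 33 CPM against 15, 23.1, 21, 17.3 and 11.4 CPM. Pck1, the gluconeogenic carboxykinase, was at 3193, 2949.5, 3086, 531 and 668 CPM against 1468, 1031, 427, 247 and 1982 CPM (log2 difference 1.52). Its values split within each side: libraries 3, 2 and 1 lay above the rest of both sides, and libraries 15 and 6 lay under libraries 7, 12 and 8.

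PPAR alpha and fatty acid oxidation genes differed little as a list. Of 29 measured, 20 had positive log2 differences, with a median of 0.40. Acaa1b and Ppara were called higher, where 3.56% of all genes were, and 0 lower. Ppara itself was at 59, 45.1, 47.8, 13.3 and 9.66 CPM in the high-Scd1 side against 5.76, 1.85, 1.62, 2.61 and 5.69 CPM (log2 difference 3.68). Acaa1b, a peroxisomal thiolase, was at 1305, 339.6, 741, 816 and 105 CPM against 52.1, 9.6, 16.7, 19.8 and 41.7 CPM (log2 difference 5.16), a 37.4-fold difference of the medians. Its near-identical copy Acaa1a can share reads with it. Cyp4a14, an omega-hydroxylase known as a PPAR alpha target, went the other way, at 394, 27.9, 332, 14.7 and 18.1 CPM against 3.44, 308, 420.0, 397 and 1079 CPM (log2 difference -3.78), with overlapping sides. Libraries 3 and 1 of the high-Scd1 side had Cyp4a14 in the range of libraries 12, 11 and 10, and library 7 was the lowest of both sides. It too has close copies in its cluster. Cpt1a, the gate of mitochondrial fatty acid import, was at 363, 279.9, 371, 135 and 219 CPM against 94.6, 102, 78, 73.3 and 177 CPM, and Ehhadh, of peroxisomal oxidation, had a log2 difference of 1.83.

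The 6 genes of ketone body synthesis had a median log2 difference of 0.00 (-0.21 with TMM) and none was called. Bdh1, which interconverts the ketone bodies, had a log2 difference of 3.04, and the monocarboxylate transporter gene Slc16a1 one of -1.53, with its highest values, 208, 347 and 421 CPM, in the low-side libraries with Pou5f1. With 5 libraries a side, the medians of the fatty acid synthesis, gluconeogenesis and PPAR alpha lists were thus all positive. With TMM alone they stayed positive (2.49, 0.93 and 0.33), and likewise without the libraries with Pou5f1 alone (3.44, 0.76 and 0.30). Without those libraries the median of all genes was 0.74, so gluconeogenesis was near it and PPAR alpha under it. Both changes together, a setting chosen after seeing the data, turned the medians of gluconeogenesis (-0.13) and PPAR alpha (-0.32) negative. The median of all genes was then 0.14. There 11 of the 13 fatty acid synthesis genes were higher (median 2.64), where 14.5% of all genes were. Of the PPAR alpha genes 2 were higher and 6 lower (14.5% and 10.6% of all genes). A feeding state is not given in the sources used here.

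**Figure D2:**
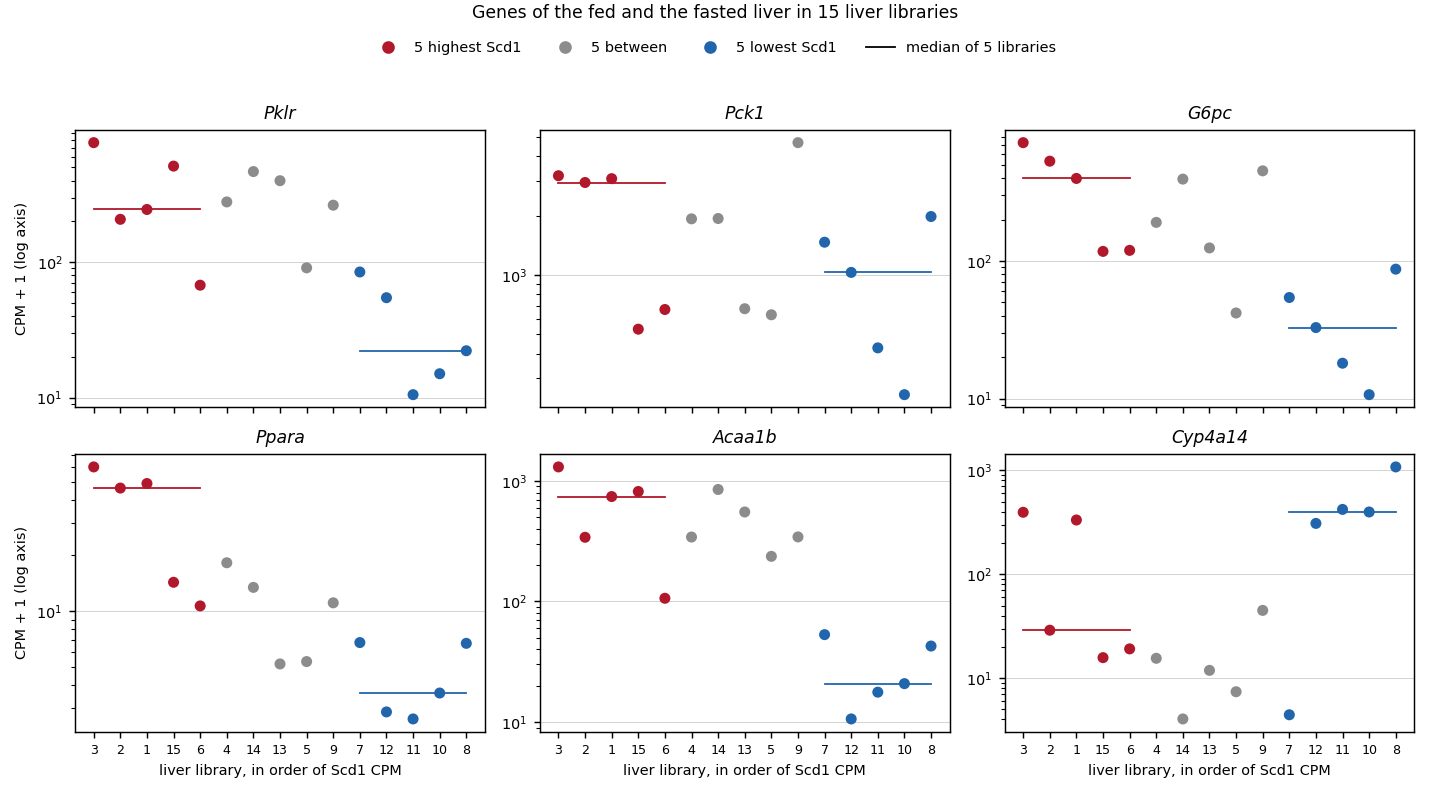
6 genes of the fed or fasted liver in the 15 liver libraries, as CPM + 1 on a log axis, with libraries in the order of their Scd1 CPM. Points are single libraries (red, highest Scd1; grey, in between; blue, lowest Scd1) and lines are medians of a side. The medians of Pck1, G6pc, Ppara and Acaa1b are higher in the high-Scd1 side, as that of Pklr is, while the median of Cyp4a14 is lower.

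In the cholesterol list 22 of 23 genes had positive log2 differences (median 1.18), and Tm7sf2 and Dhcr7, of the last steps of the pathway, were called higher. With TMM 1 was called, with DESeq2 size factors 0, and without library 6 there were 9 (9.56% of all genes). Sc5d, a sterol desaturase, was at 1035, 688, 808, 504 and 66.4 CPM against 198, 72.9, 67.7, 73.1 and 125 CPM (log2 difference 3.22), and Hmgcs1, which makes HMG-CoA, had one of 1.67. In both, library 6 lay under the low-side range. Among 17 lipid droplet genes only Cd36, the fatty acid translocase, was called higher, at 146, 77.9, 103, 18.5 and 35.8 CPM against 9.3, 9.45, 9.61, 16.4 and 11.5 CPM. Pparg, a factor raised in fatty liver, had a log2 difference of 2.05 and Hilpda, a lipase inhibitor, one of -2.08, both with overlap. Of 19 lipoprotein genes none was called (median 0.59). Without the libraries with Pou5f1 the median turned to -0.27, against 0.74 for all genes. There 3 genes were higher and 5 lower (34.1% and 3.22% of all genes). With TMM as well the median was -1.02 against 0.14, with 2 higher and 9 lower (14.5% and 10.6% of all genes). Pltp, the phospholipid transfer protein gene, had the largest difference among them, 3.62, and Apoa4 one of -1.53.

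Bile acid genes had a median log2 difference of 2.08 over 20 genes, of which 3 were called higher: Abcc2, Abcg5 and Abcg8, canalicular export pumps for conjugates and sterols. Cyp7a1, the rate-limiting enzyme of bile acid synthesis, was at 155, 98.7, 149.9, 75.5 and 0.431 CPM in the high-Scd1 side and at 11.3, 0, 0.269, 0.282 and 12.6 CPM in the low-Scd1 side. Cyp8b1, which sets the share of cholic acid, was at 276, 96.9, 153, 316 and 18.6 CPM against 14.8, 0.618, 2.51, 1.41 and 19.7 CPM. In both genes the high values were in libraries 3, 2, 1 and 15, and library 6, at 0.431 CPM of Cyp7a1, lay with the low-side libraries that had Pou5f1, whose Cyp7a1 was 0 to 0.282 CPM. Abcb11, the bile salt export pump, was at 787, 523, 726, 529.7 and 84.3 CPM against 216, 27.7, 26.4, 22.1 and 112 CPM. With TMM and with DESeq2 size factors 2 genes were called, and without library 6 there were 11 (9.56% of all genes). Without libraries 7 and 8, which had 11.3 and 12.6 CPM of Cyp7a1, the count was 10 (8.24%).

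Drug metabolism separated in part. Of 17 glutathione and Nrf2 genes, 6 were called higher (3.56% of all genes) and 0 lower, with a median of 1.40. All 6 are glutathione S-transferases, and with TMM 4 genes were called higher (2.06%). Gstm3 was at 74.1, 135, 148, 54.1 and 23 CPM against 8.79, 2.3, 1.53, 2.4 and 1.83 CPM (log2 difference 4.51). Gsta2 was at 28.7, 17.6, 22, 20.3 and 7.14 CPM against 1.6, 0.442, 0, 0.715 and 2.22 CPM (log2 difference 3.64). Gstm1 was at 1647, 1775, 1625, 1425 and 563 CPM against 431, 245, 256, 223 and 183 CPM. These genes have near-identical paralogs, so their separate values are uncertain. Library 6 stood out in Gsta4, at 637 CPM against 56.9 to 68.6 CPM in the rest of its side, and in Gsta1, at 5.46, 11.9, 9.06, 111 and 1039.5 CPM. Of 22 cytochrome P450 genes 19 had positive log2 differences (median 1.82). Cyp2c38 was the only one called, as higher, where 3.56% of all genes were. Without library 6 the count was 6, without libraries 7 and 8 it was 7 and in the order of Fasn 8 (9.56%, 8.24% and 7.12% of all genes). Cyp3a11, the main xenobiotic P450, was at 872, 1022, 1983, 414 and 77.8 CPM against 125, 20.5, 51.6, 46.4 and 180.0 CPM, overlapping through libraries 6, 7 and 8.

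Acute phase genes were lower in the high-Scd1 side than in the low-Scd1 side. Of 30 measured, 28 had negative log2 differences, with a median of -2.52 against 0.12 for all genes. In the high-Scd1 side 12 were called lower (0.55% of all genes) and 0 higher. With TMM 18 were lower (1.43% of all genes), and without the libraries with Pou5f1 16 were (3.22%, median -1.27). With 7 against 7 libraries 0 of the 30 were called (median -1.67), where 3 of all genes were called lower. The list level was 6.69 to 8.03 in the high-Scd1 side, 6.46 to 8.60 in the libraries in between and 9.21 to 10.3 in the low-Scd1 side, so the sides did not overlap. The median level of the libraries in between, 6.93, was near that of the high-Scd1 side, 7.06, so the level did not rise step by step as Scd1 fell. All 5 low-side libraries were high, with and without Pou5f1.

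Saa1, serum amyloid A, was at 26.8, 358, 24.1, 92.4 and 976 CPM in the high-Scd1 side and at 5657, 17318, 9444, 9499 and 12796 CPM in the low-Scd1 side, a log2 difference of -6.67. Saa2 was at 16.9, 178, 15.6, 46.5 and 301 CPM against 5505, 17544, 7955, 8478 and 10437 CPM (log2 difference -7.48). These near-identical genes can share reads, so their separate values are uncertain. Lcn2, an iron-scavenging protein, was at 6.7, 142, 16, 5.32 and 250.1 CPM against 656, 3489.5, 1354, 1236 and 623 CPM (log2 difference -6.18). Hp, haptoglobin, was at 1421, 5425, 2272, 3183 and 4369.7 CPM against 21436, 35748, 23653, 23224 and 23449 CPM, a 7.37-fold difference of the medians. Hpx, hemopexin, which binds free haem as haptoglobin binds haemoglobin, was at 3090.0, 8315, 5236, 3391 and 2843 CPM against 18994, 22500.0, 14904, 14255 and 19378 CPM. Orm1, orosomucoid, was at 527, 766, 265, 726 and 634 CPM against 5627, 5942, 3548, 3343 and 5756 CPM, and it too has close copies. Saa3 (log2 difference -2.56) and Il1r1, the interleukin-1 receptor gene (-2.74), were called lower too. Outside the list, so were Lrg1, a plasma glycoprotein gene (-3.08), and Fgl1, a fibrinogen-like liver protein gene (-2.77).

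Serpina3n, a serine protease inhibitor, had a different layout. It was at 316, 435, 376, 146 and 758 CPM in the high-Scd1 side against 746, 22524, 24286, 21105 and 1912 CPM, so the highest values were in the 3 low-side libraries with Pou5f1, and library 7 lay just under library 6. With 5 libraries a side it was called lower with TMM and not with CPM, and without the libraries with Pou5f1 it was called lower at -1.79. The metallothionein genes were close to that layout: Mt1, a metal-binding stress protein, was at 100.2, 99.8, 181, 19.8 and 1226 CPM against 2829, 4895, 4871, 3842 and 1377 CPM and called lower, and Mt2 was at 49.6, 39.9, 82, 6.65 and 973 CPM against 753, 3167, 3316, 2807 and 598 CPM with overlap. Library 6, the high-side library with Pou5f1, had the highest Saa1, Lcn2, Mt1, Mt2 and Serpina3n of its side.

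**Figure D3:**
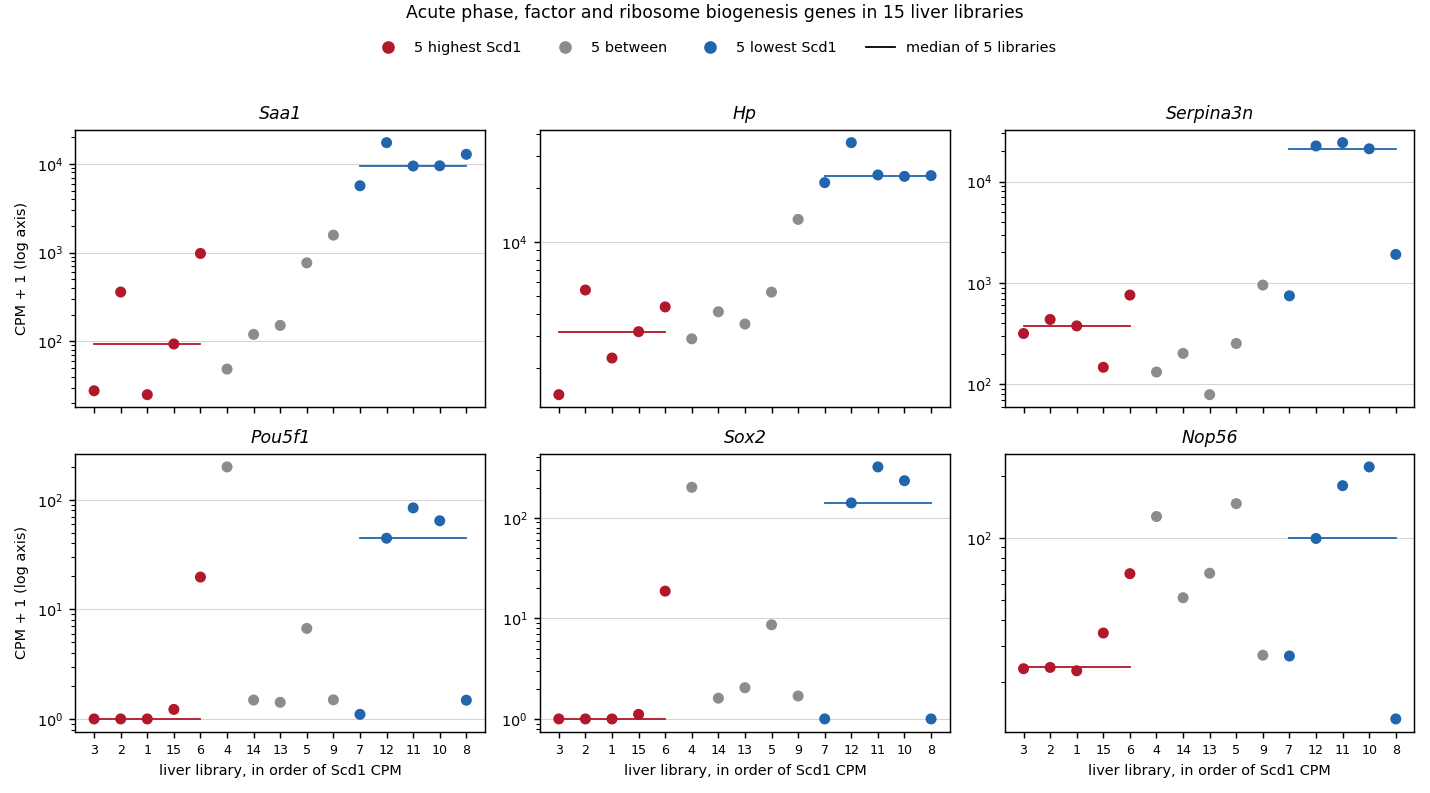
3 acute phase genes, 2 of the reprogramming factors and the nucleolar gene Nop56 in the 15 liver libraries, as CPM + 1 on a log axis, in the order of Scd1 CPM. Points are single libraries (red, highest Scd1; grey, in between; blue, lowest Scd1) and lines are medians of a side. Saa1 and Hp are high in all 5 blue libraries, while among the blue ones Serpina3n, Pou5f1, Sox2 and Nop56 are highest in libraries 12, 11 and 10.

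The 4 factor genes differed between the sides through those libraries. Sox2 was at 0, 0, 0, 0.111 and 17.7 CPM in the high-Scd1 side and at 0, 139.8, 320.3, 233 and 0 CPM in the low-Scd1 side. Myc was at 21.3, 13.8, 12, 21.8 and 109 CPM against 2.43, 336, 866, 709 and 3.47 CPM, and Klf4 was at 3.93, 7.3, 6.53, 2.44 and 52.1 CPM against 0.505, 94.4, 175, 131 and 1.74 CPM. None was called, since libraries 7 and 8 lay within or under the high-side range. Library 4, with the highest Pou5f1 of all (199 CPM), was in between, at 3037 CPM of Scd1 and 497 CPM of Fasn. Genotype and Scd1 side cannot be told apart with these columns, and the part of the factors in the differences between the sides was not tested.

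Some lists changed sign when the libraries with Pou5f1 were left out, where the median of all genes was 0.74 with CPM and 0.14 with TMM. All 17 ribosome biogenesis genes had negative log2 differences (median -1.33), 0 were called, and 13 were called lower without libraries 7 and 8 (9.96% of all genes). Leaving out the libraries with Pou5f1 instead, the median was 0.52, under that of all genes, and with TMM it stayed negative at -0.23. Nop56, a nucleolar protein gene, was at 22.2, 22.6, 21.7, 33.6 and 66.1 CPM against 25.8, 98.4, 178, 219.8 and 12.3 CPM. Integrated stress response genes had a median of -1.01, and 1.03 without the libraries with Pou5f1 (0.41 with TMM). Psat1, of serine synthesis, was at 0.446, 6.42, 4.58, 3.1 and 7.25 CPM against 0.101, 75.7, 153, 179.7 and 0.483 CPM, and Nupr1, a stress-induced regulator, at 1.07, 4.86, 2.88, 9.2 and 40.3 CPM against 3.03, 41.6, 167, 147 and 2.41 CPM. Targets of p53 had a median of -0.28, and 1.33 without those libraries (0.82 with TMM). Btg2, an antiproliferative p53 target, was at 174, 51.6, 56.9, 25.3 and 154 CPM against 5.05, 373, 511, 402 and 26.5 CPM.

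Genes of the cytosolic ribosome behaved otherwise. This list was made after the values were seen. All 81 measured genes had negative log2 differences, with a median of -1.31 (-1.47 with TMM and -1.36 without the libraries with Pou5f1). Of the 81, 13 were called lower (0.55% of all genes). The largest difference was that of Rps12, at -2.07. Ribosomal protein genes have many near-identical pseudogenes, so their counts are uncertain. Their share of the counts was 1.06% to 3.07% in the high-Scd1 side, with the highest in library 6, and 2.86% to 4.45% in the low-Scd1 side. In the libraries in between it was 1.18% to 5.58%. Sdf2l1, an endoplasmic reticulum chaperone cofactor, was the only one of 13 unfolded protein response genes called lower, at 12.6, 37, 30.6, 12.7 and 31.6 CPM against 70.9, 104, 39, 49.5 and 164 CPM, and Snhg6 and Bola2 were also among the 15 largest lower differences.

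**Figure D4:**
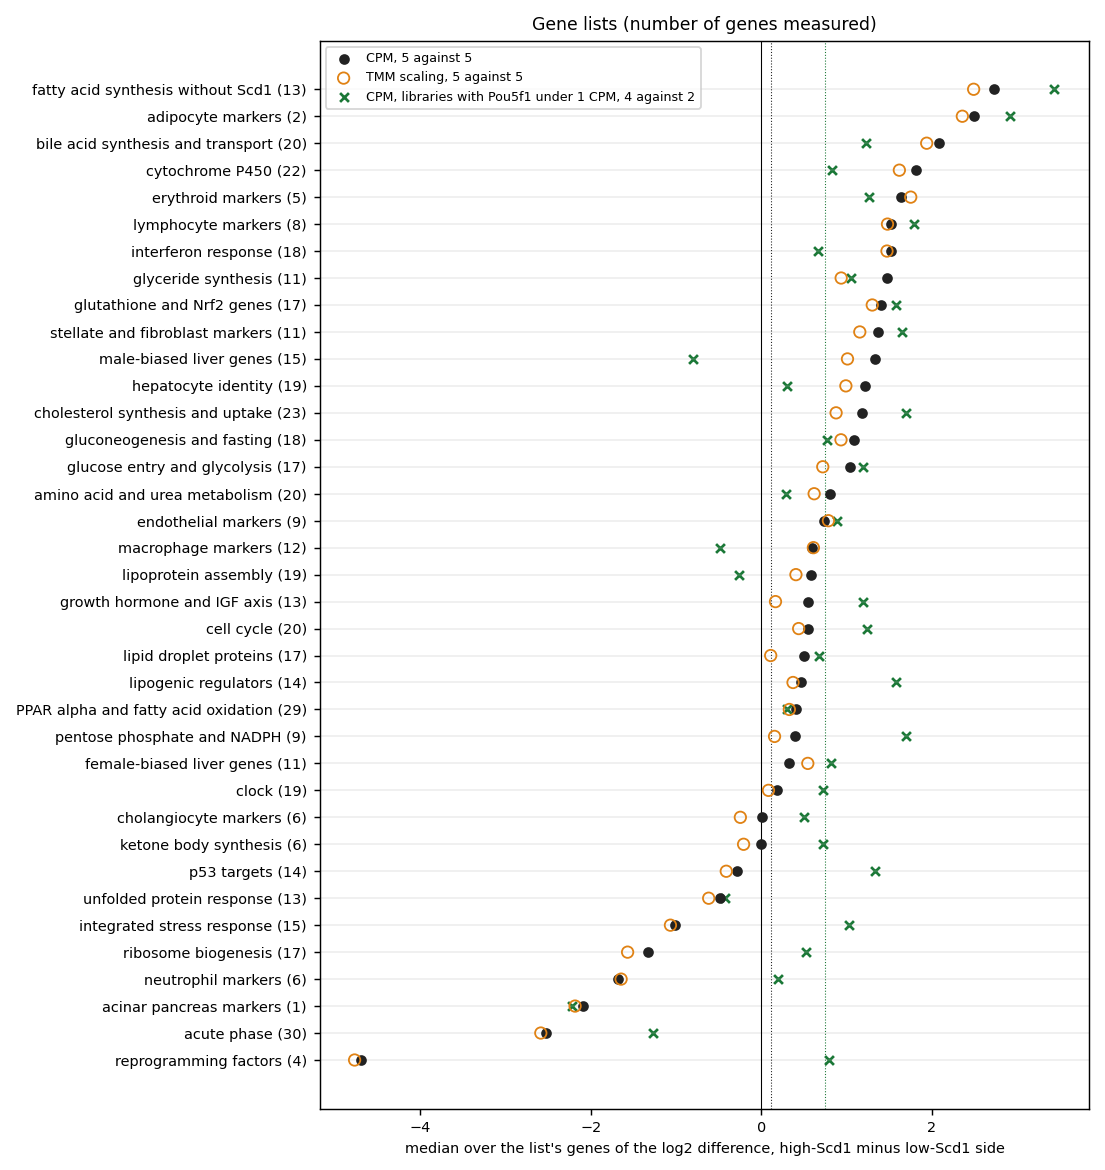
Median log2 difference, high-Scd1 minus low-Scd1 side, over the measured genes of each list (their number in brackets), with CPM (filled), with TMM scaling (open circles) and without the libraries with Pou5f1 (crosses, 4 against 2). Dotted lines mark the medians of all genes, 0.12 in the first and 0.74 in the last. Fatty acid synthesis has the largest positive median, 2.73, and acute phase genes stay negative in all 3, while the reprogramming factor, stress response and p53 lists lie above the last dotted line without those libraries and ribosome biogenesis, at 0.52, lies under it.

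Hepatocyte identity genes had a median log2 difference of 1.22 over 19 genes, with Foxa2 and Prox1 called higher. Hnf4a, the master factor of the hepatocyte, was at 712, 600.2, 570.0, 321 and 175 CPM against 146, 255, 101, 65.5 and 164 CPM, and the urea cycle gene Cps1 was at 5166, 3225, 4814, 1334 and 1650.0 CPM against 656, 516, 332, 273 and 2937 CPM. Both were highest in libraries 3, 1 and 2. Fetub, a liver-secreted inhibitor, went the other way at -2.18. Of the growth hormone axis, Stat5b, which carries the hormone's signal to the nucleus, was called higher at 69.2, 76.2, 67.1, 58.1 and 60.6 CPM against 18.5, 24.5, 24.4, 24.9 and 17.5 CPM, and Igf1 was at 565, 457, 488, 330.1 and 115 CPM against 869.8, 98.2, 51.4, 46.7 and 443 CPM with library 7 the highest of all. Among 19 clock genes none was called. Per3 was at 11.1, 2.33, 2.97, 27 and 1.81 CPM and 5.86, 1.41, 0.808, 0.917 and 3.09 CPM in the sides, and at 56.4, 49.7, 42.8, 12.2 and 29.1 CPM in the libraries in between.

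Sex-biased genes marked library 1. The female-biased A1bg was at 2445 CPM there and at 0 to 11.1 CPM in the other high-side libraries, and the male-biased Elovl3 was at 79, 83.7, 0.339, 94.3 and 11.6 CPM against 11, 1.24, 0.359, 0.282 and 7.53 CPM. Low-side libraries 12, 11 and 10 had Y-linked counts and yet little of the male-biased Hsd3b5, at 0.442, 0.808 and 1.06 CPM, against 128 CPM in library 7. Hsd3b5 was also low in high-side libraries 3, 2 and 6, at 5.09, 12.6 and 1.12 CPM. Among libraries with Y-linked counts, 474 genes were called higher and 80 lower.

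Markers of other cells were read to see what else differs between the pieces of tissue, where fewer cells of a type and less RNA per cell cannot be told apart. With 5 libraries a side, none of 12 macrophage, 8 lymphocyte, 9 endothelial, 6 cholangiocyte and 5 erythroid genes was called. All 5 erythroid genes still had positive log2 differences (median 1.64). Their level was 3.91 to 5.75 in the high-Scd1 side and 2.64 to 4.93 in the low-Scd1 side. Macrophage level was 4.28 to 7.29 in the high-Scd1 side, where library 2 was the highest, and 3.71 to 5.56 in the low-Scd1 side. Its median log2 difference, 0.59 against 0.12 for all genes, turned to -0.49 without the libraries with Pou5f1, against 0.74. With TMM as well it was -1.17 against 0.14. The Kupffer cell gene Clec4f was at 60, 389.8, 55, 109.7 and 79.2 CPM against 174, 39.6, 46.1, 38.5 and 133 CPM. Lymphocyte level was 0.32 to 4.72 against 0.25 to 1.1, with Ighm at 771 CPM in library 1. All 8 lymphocyte genes had positive log2 differences (median 1.52), and without library 6, 5 were called higher, where 9.56% of all genes were. Without the libraries with Pou5f1 it was 5 (34.1%), and in the order of Fasn 6 (7.12%). Of 6 neutrophil genes measured, 2 were called lower, S100a9 at 7.77, 13.2, 4.58, 3.55 and 11.5 CPM against 38.9, 43, 138, 199 and 17.5 CPM and S100a8 at 5, 12, 2.71, 1.33 and 4.57 CPM against 48.8, 13.8, 23, 23.4 and 15.1 CPM. Their list level was 1.09 to 2.77 against 2.03 to 4.38. The list's median, -1.68, was 0.19 without the libraries with Pou5f1 and -0.20 with TMM as well. In each, 2 genes were lower, where 3.22% and 10.6% of all genes were. Mpo, Elane, Ly6g and Camp, 4 of the 10 genes listed, averaged under 1 CPM. With TMM alone 3 of the 6 measured genes were lower (1.43% of all genes). Without libraries 7 and 8 it was 5 (9.96%), with a median of -2.41. With 5 libraries a side and CPM, Csf3r had a positive log2 difference, 0.11, and the other 5 had negative ones. The part of neutrophils in the acute phase difference was not tested. Of 11 stellate and fibroblast genes, Reln was called higher, and all 11 had positive log2 differences (median 1.37). With TMM and with DESeq2 size factors 0 were called, and without library 6 there were 6 (9.56% of all genes). Of the 7 adipocyte markers 5 were below 1 CPM on average, and of the 8 acinar ones 7 were. The acinar gene measured, Cela2a, was at 0.446, 0.681, 1.02, 0.665 and 0.949 CPM against 2.93, 6.18, 8.98, 5.85 and 14.6 CPM and was called lower.

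Beyond the lists, the largest differences among called genes with a median of 5 CPM or more on one side included receptors, transporters and enzymes. Chrna4, a nicotinic receptor subunit gene, was at 128, 40.5, 19.7, 243 and 0.259 CPM against 0, 0.0883, 0, 0.212 and 0 CPM (log2 difference 5.37). The gap between the sides was 0.259 against 0.212 CPM, both at the level that a count of 0 allows, so library 6 is not apart from the low side. Membrane transporters were Slc10a5, at 51.8, 40.9, 51.3, 7.21 and 2.93 CPM against 1.11, 0.442, 0.0898, 0.141 and 1.83 CPM, and Slc17a4 (log2 difference 4.05). Slc37a2, a sugar-phosphate exchanger gene, was at 2.14, 16.7, 3.73, 33.1 and 530.1 CPM against 1.31, 0.177, 0.18, 1.27 and 0.0965 CPM, with the high value in library 6. Library 5, in between and also with Pou5f1, had 337 CPM of it. A1cf, the RNA-binding partner of apolipoprotein B editing, was at 122, 105, 96, 12.6 and 14.5 CPM against 7.17, 3, 2.51, 3.03 and 4.05 CPM. Like Slc10a5 it was highest in libraries 3, 2 and 1. Papss2, which makes the sulfate donor, was at 221, 116, 256, 154 and 78 CPM against 31.8, 4.86, 4.67, 8.25 and 13.7 CPM. Mme, the neprilysin gene, had a log2 difference of 4.27 and Col14a1, a collagen gene, one of 3.69, and the latter was not called with TMM. On the lower side, Gnat1, a transducin gene of photoreceptors, was at 6.87, 6.83, 7.54, 6.75 and 3.87 CPM against 7.55, 77.7, 42.7, 38.5 and 15.1 CPM, and its low-side lowest value, 7.55 CPM, met the high-side highest, 7.54 CPM.

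**Figure D5:**
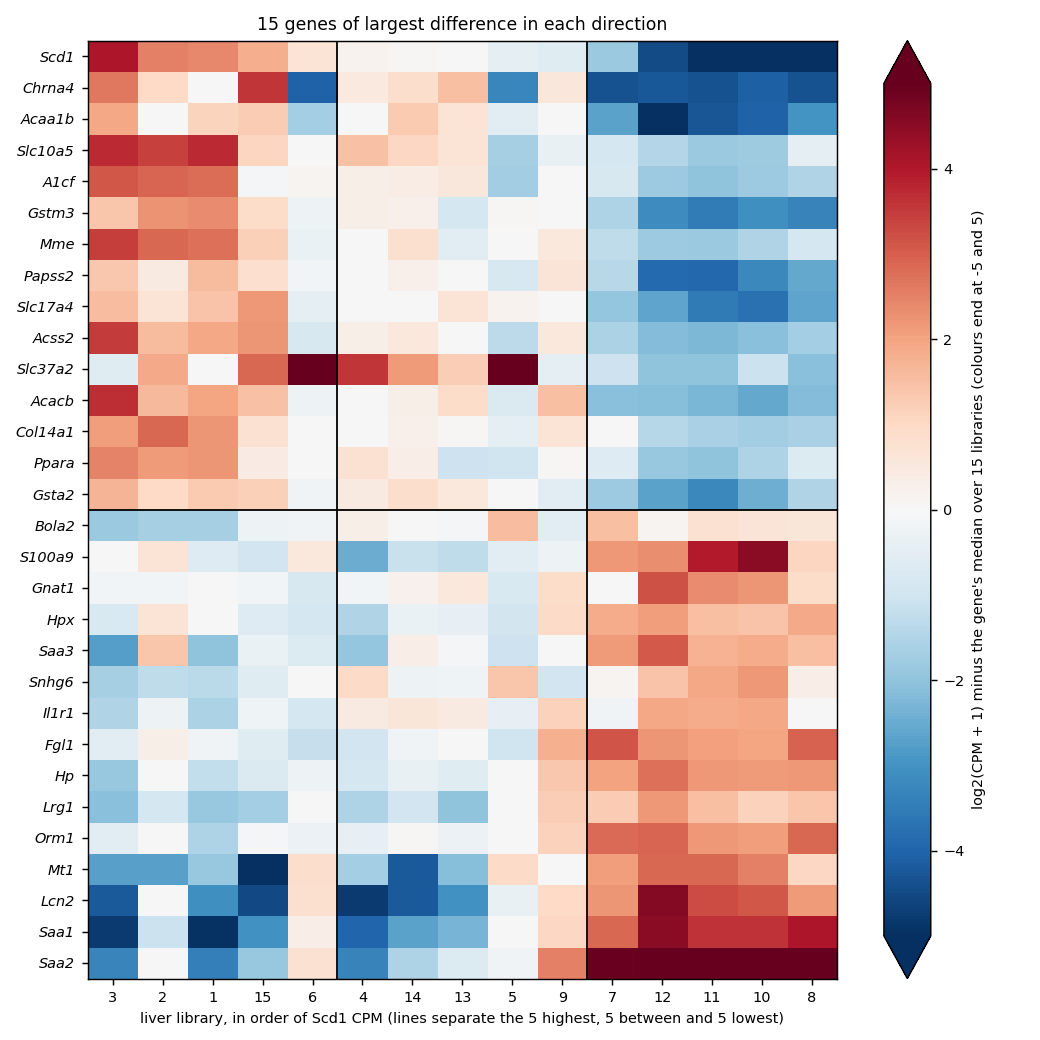
The 15 genes with the largest log2 difference in each direction among those called, in the 15 liver libraries in the order of Scd1 CPM. Colour is log2(CPM + 1) minus the gene's median over the 15 libraries. The upper genes are blue in libraries 7 to 8 at the right and the lower genes red there, library 9 in between is already red for most acute phase genes, and library 6 is pale or opposite to its side in several rows.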

How the data were processed

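RNA of 15 liver samples was read from the table of estimated counts per gene that the authors deposited, with 56941 gene rows, where 26.1% of the values above 0 were not whole (tolerance 1e-06). The build GRCm39 and DESeq2 are named in the submitters' processing notes. For the aligner, counter, annotation and strand setting, nothing is given in the sources used here. Per the labels' protocols, a sequencing company made the cDNA libraries from total RNA of frozen tissue. The 81 columns of other tissues and the deposited normalised table were not used. Rows without a gene name (310, at most 0.113% of a library) stayed in the totals.

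Columns carry a tissue code and a running number and no genotype, so libraries were not assigned to genotypes and no test between the sides was run. CPM was the count over the library total times 1000000, and the sides were the 5 libraries highest and the 5 lowest in Scd1 CPM. Genes entered at a mean of 1 CPM, with a pseudocount of 1 CPM. Of 546 genes in 38 lists, 544 matched a name and 512 were measured; where 2 rows shared a symbol, the row with the highest mean was used. Named genes were all measured members of the 3 lipogenic lists, from each other list the members (at most 6) with the largest differences, and the 15 called genes with the largest difference in each direction, with a median of at least 5 CPM on a side and no predicted, mitochondrial or Y-linked names. Any other gene is named with its values already known. The members, lists and rules were chosen with earlier results of these data known. In 105 comparisons of library pairs, none was identical, and over 8584 genes with 20 or more counts the closest pair had a chi-square of 15.4 per gene. The calling step was tested on simulated data, with sides set by column order and the same gene means in all libraries apart from the planted changes. It does not cover sides chosen by a gene's level or libraries that differ in composition. Since PCR copies of a molecule were not marked, limits for a count of 0 cover counting error only.

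TMM factors came from edgeR 4.0.16 and size factors from DESeq2 1.42.0 in R 4.3.3, after rounding the counts. The rest ran in Python 3.11.15 with pandas 2.3.3, numpy 2.4.6 and matplotlib 3.10.9. Leaving out libraries 7 and 8, and leaving out the libraries with Pou5f1 together with TMM scaling, were chosen after seeing the data. Values of some single genes of the lists are not reported here.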

Additional observations from a re-analysis of the deposited data

Results flagged for a closer look

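A value far from the other 4 of its side, by Dixon's test, was found in 25 of 220 sets of 5 values (11.4%). The nominal rate of about 1 in 20 is no yardstick here. The sets share libraries, and they include Scd1 and genes picked because the sides did not overlap. Library 6 gave 13 of the 25. In it the level of the reprogramming factors was 5.26, against 1.65 to 1.74 in the rest of the high-Scd1 side, and that of ribosome biogenesis was 5.42 against 4.45 to 4.72. The levels of lipogenic regulators (5.32), bile acid genes (5.25), the growth hormone axis (5.15), lipoprotein genes (8.23) and the adipocyte list (3.90, of which only Car3 and Fabp4 were measured) were the lowest of that side. Among genes, library 6 had Srebf1 at 44.6 CPM against 243 CPM or more in the others, Slc25a1 at 128 CPM and Gnat1 at 3.87 CPM, both the lowest, and Agpat2 at 387 CPM, Nr1h3 at 279 CPM and Mlx at 91.5 CPM, all the highest.

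Library 7 stood apart in the low-Scd1 side with 99.9 CPM of Elovl6 against 28.8 CPM or less, 18.2 CPM of Col14a1, 8.79 CPM of Gstm3, 9.36% of mitochondrially encoded counts and the lowest lipid droplet level, 3.69. Library 8 had the highest Nr1h3 of that side, 101 CPM, and the lowest fatty acid synthesis level without Scd1, 4.98. Library 10 had the highest cell cycle level, 3.32 against 1.02 to 1.68, and the highest cholangiocyte level, 4.65 against 2.25 to 2.78. Library 12 had the highest Hp of the side, 35748 CPM. In the high-Scd1 side, library 2 had a macrophage level of 7.29 against 4.28 to 4.90, and library 1 a Y-linked level of 0 against 4.38 or more.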

How the results depend on the processing

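The counts of genes called higher and lower, 480 and 74, were 277 and 193 with TMM, 256 and 212 with DESeq2 size factors, 1827 and 714 with 3 against 3 libraries, 22 and 3 with 7 against 7, and 959 and 321 in the order of Fasn. Without mitochondrially encoded genes in the total, 44 were lower. Without the libraries with Pou5f1 they were 4588 and 434, with TMM as well 1948 and 1428, and without libraries 7 and 8 1109 and 1341. Leaving out 1 library at a time gave 455 to 1288 higher and 72 to 197 lower genes. Fewer libraries a side make non-overlap easier to meet. Pseudocount, filter and an order by Scd1 after TMM left both counts within 1.5 times. The difference in fatty acid synthesis level without Scd1, 2.65, was 2.56 to 2.81 without 1 library, and that of the cholesterol list, 1.16, was 0.85 to 1.28. The PPAR alpha list, 0.41, gave 0.30 to 0.76 without 1 library, 1.07 with 3 against 3, and -0.255 without the libraries with Pou5f1 and with TMM. Under that last setting the lipid droplet list turned to -0.0204. The cause of these shifts was not tested. Of the other values, 5107 for genes and 720 for lists moved by less than the spread between libraries, and 305 and 49 moved by more. No paired analysis was possible because the columns carry no replicate number or genotype. At these depths, values up to 0.365 CPM cannot be told from 0 by counting error.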
